A study of Drosophila melanogaster with 36 samples.

Results

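The circadian clock of Drosophila is a set of genes whose products switch their own transcription on and off over the day. Here 8 of them, per, tim, Clk, cyc, vri, Pdp1, cwo and cry, were followed through the life cycle of the fly, from freshly laid eggs to adults. They were taken from the deposited gene table by their FlyBase or CG identifiers, as 8 of the 12698 genes listed, and all 8 were found.

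In the adult clock, the proteins CLOCK (from Clk) and CYCLE (from cyc) bind together to E-box sequences and activate per, tim, vri, Pdp1 and cwo. PERIOD and TIMELESS, the products of per and tim, then enter the nucleus and block CLOCK and CYCLE, while VRILLE represses and PDP1 activates Clk in a loop of its own, and CLOCKWORK ORANGE, the product of cwo, represses E-box genes. CRYPTOCHROME, from cry, is a blue light receptor that leads to the breakdown of TIMELESS, and in the fly this machinery is best known from a small group of brain neurons, from photoreceptors and from several other adult tissues.

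The study mapped transcription start sites with RAMPAGE, a method that keeps only cDNAs reaching the capped 5′ end of an RNA and reads that end, so a gene's length does not enter its count. Whole, untreated animals of the strain y; cn bw sp, kept at 24 °C, were pooled for 36 libraries, 1 per stage. They were 24 embryo libraries from egg collections of 1 h, covering 0 to 24 h of age, L1 and L2 larvae aged 42 and 66 h, wandering L3 larvae with a dark, light or clear gut, pupae taken 1 to 5 days past the white prepupal stage, and adult flies of each sex, 5 days old. Embryos, larvae with pupae, and adults were prepared as 3 separate multiplexed libraries, and the adults differed further in RNA extraction reagent and in sequencer, so stage and preparation cannot be told apart between these blocks and no test was made across them.

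Levels are given in RPM, reads per 1000000 reads of the library, and the tables held 180571631 reads in all, with 698702 to 11856035 per embryo library, 873086 to 14259966 per larval library, 1066282 to 16690598 per pupal library, 8790853 for males and 11281352 for females. Intervals and floors (3 reads of a library's total) cover counting error only, for reads in the called start-site peaks. In all 5 pupal libraries every gene of the minus strand was listed at 0, and tim, Clk, cyc and Pdp1 lie on that strand, so these 4 genes were not measured in pupae. Marker genes bore out the labels of the youngest embryos and of the adult sexes. The egg mRNA osk averaged 532 RPM at 0–4 h (SD 513) and 10.7 RPM at 4–8 h. In adults it had 2.84 RPM in males and 869 RPM in females. The sperm gene dj had 475 RPM in males and no read in females, and the yolk gene Yp1 had 7.74 RPM in males and 3935 RPM in females. These genes do not check the labels of the other stages. No source used here gives the light schedule or the hour of freezing, so clock phase cannot be told apart from stage or sex in any comparison.

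cwo was read in all 36 libraries, Pdp1 in all 31 where it was measured, cyc in 30 of 31 and vri in 35 of 36, while per, tim, Clk and cry never passed 6.59 RPM before the pupa. Pdp1 gave most of the signal: its mean over the 24 embryo libraries ranked 83 of 12698 genes, and from 2–3 h to the L3 light gut stage it held 54.2% to 97.9% of the summed RPM of the 8 genes. These levels are for the whole gene and do not separate its 12 start-site peaks. Only in the first 2 hours was another member on top in the embryo, cyc with 85.3% of the sum at 0–1 h and 82.5% at 1–2 h.

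**Figure D1:**
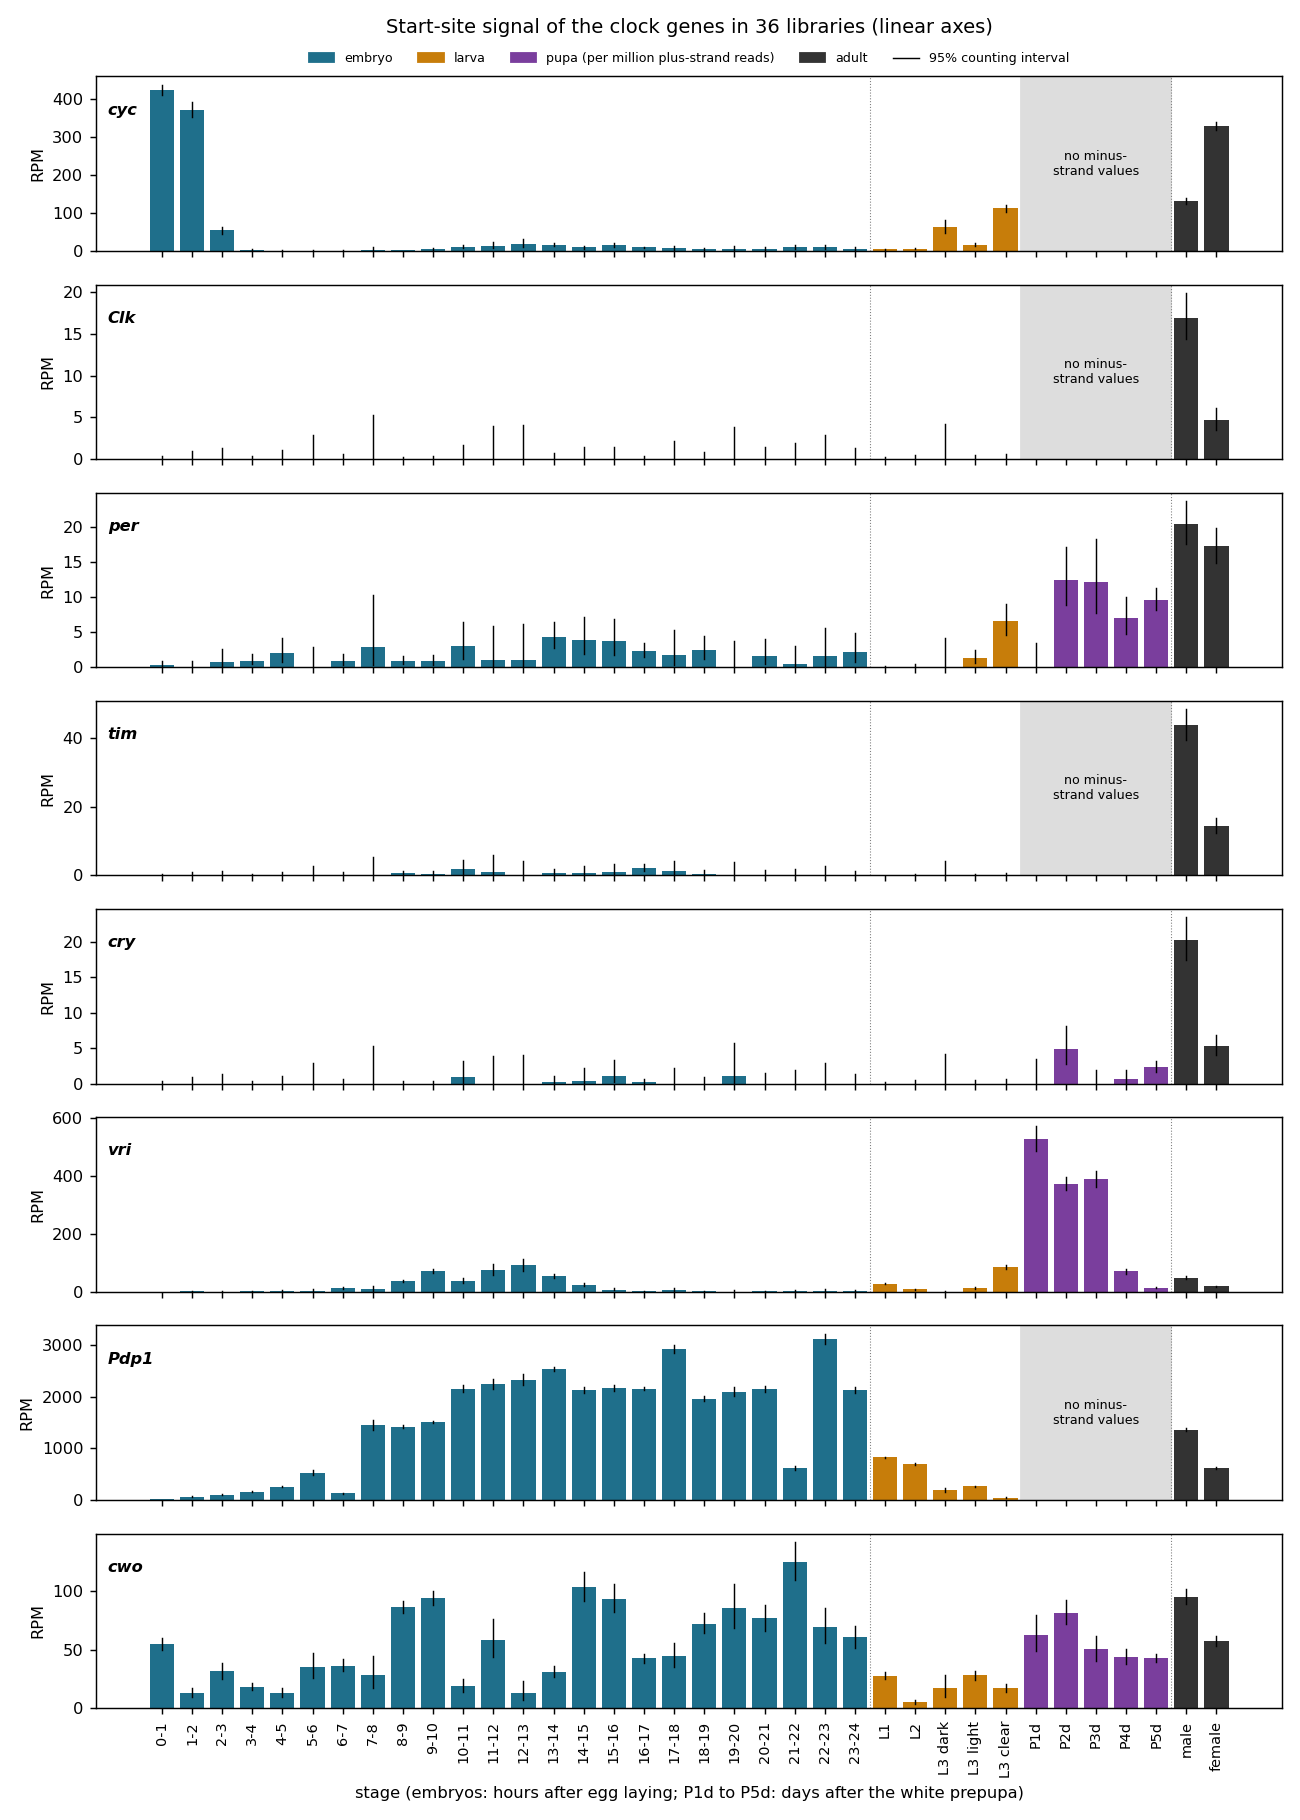
Levels of the 8 clock genes in RPM (linear vertical axes) in each of the 36 libraries, from the first hour of embryogenesis to adult males and females, with 1 panel per gene, 1 bar per library, 95% counting intervals as lines, and pupal bars in effect relative to plus-strand reads alone. Clk had no read in embryos or larvae, cyc was highest in the first 2 hours, vri had a peak at 12–13 h and another in pupae, and tim, Clk, cyc and Pdp1 have no pupal values (grey) because minus-strand genes were not measured there.

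The activator pair was split in development: no read of Clk was found in any embryo or larva, whereas cyc was read in 23 of 24 embryo libraries and in all 5 larval ones. Clk had 0 of 96766922 embryo reads, which allows up to 0.0310 RPM, and 0 of 36616473 larval reads, which allows up to 0.0819 RPM over the pooled libraries. Single libraries allow less firm limits, of 0.253 to 4.29 RPM in embryos. All these limits are for reads in the called start-site peaks of Clk, which were 2, each 10 bases wide. A Clk start elsewhere in the gene may not have been counted. The adult libraries had Clk at 16.9 RPM in males (149 reads) and 4.70 RPM in females (53 reads).

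cyc, which encodes the constitutive partner of CLOCK, started at 423 and 372 RPM in the first 2 hours. It stood at 54.0 RPM at 2–3 h and 3.03 RPM at 3–4 h, then at 0.579, 0, 1.18 and 2.86 RPM in the 4 libraries of 4–8 h. All 4 later libraries were below all 4 earlier ones, although the earlier group itself spanned the steep decline. The closest pair, 3.03 RPM at 3–4 h and 2.86 RPM at 7–8 h, is not resolved. The value at 7–8 h is 2 reads, with an interval of 0.347 to 10.3 RPM. The library of 5–6 h had no cyc read, which allows up to 2.37 RPM, so the order of these 4 low libraries is not resolved.

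cyc was at 2.19, 5.26, 10.7 and 13.8 RPM at 8–12 h. It then stood at 18.9, 17.0, 9.30 and 14.8 RPM at 12–16 h and between 5.16 and 9.37 RPM in every library of 16–24 h. The highest of these later libraries, at 12–13 h, was far below the level at 0–1 h. Neither step passed limma's test, a linear model fitted across all genes, at 8–12 h against 4–8 h (log2 change 2.01 ± 0.89 SE, adjusted p = 0.128; 0.0737 with edgeR and 0.0373 in a fit of only these 8 libraries) or at 12–16 h against 8–12 h (1.02 ± 0.89, adjusted p = 0.468). The SE of 0.89 is pooled over all 24 embryo libraries and so includes the fall of cyc within 0–4 h. Larvae had cyc at 4.28 (L1), 6.26 (L2), 63.0 (dark gut), 16.8 (light gut) and 112 RPM (clear gut), so the clear gut library was highest and the 3 gut stages did not follow one another in order.

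To test change over embryogenesis, the 24 hourly libraries were put into 6 periods of 4 consecutive hours and fitted together with limma on log2(RPM + 1), a scale that understates the change of low genes. A gene was called when its Benjamini-Hochberg adjusted p was below 0.05 and its change at least 2-fold. Neighbouring hours are not replicates of a stage, so the p-values measure the spread between neighbouring hours, and each period's SD holds change within it. That spread was pooled for each gene over all 6 periods, so a steep change within any period widens the SE of every comparison. Of the 8 genes, per, cyc, vri, Pdp1 and cwo had at least 2 RPM in at least 3 libraries and were tested, while tim, Clk and cry were too low. In whole animals, fewer cells of a type and less RNA per cell cannot be told apart.

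At 4–8 h against 0–4 h, cyc fell, and vri and Pdp1 rose. cyc averaged 1.15 ± 1.24 RPM at 4–8 h and 213 ± 215 RPM at 0–4 h (SD, n = 4 each), a log2 change of -5.33 ± 0.89 (SE) with an adjusted p of 0.00023. These were 3 of the 5 tested members, against a background of 17.8% of the 9940 genes tested, with 9.30% called higher and 8.53% called lower in the later period. The groups did not overlap for cyc and vri, as for 15.2% of all genes, and they did overlap for Pdp1 and the other members. For cyc the gap, between the libraries of 3–4 h and 7–8 h, lay within counting error. The egg mRNAs osk and bcd, the listed markers of maternal RNA, fell in the same comparison (2 of 3 tested), and their part in the result was not tested.

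vri, whose product represses Clk in the adult clock and is also required for embryonic development, had 1 broad peak in the embryo. It was at 0.328, 1.25, 1.06 and 1.52 RPM at 0–4 h and at 3.18, 3.15, 13.1 and 10.0 RPM at 4–8 h. It reached 36.0, 71.8, 37.7 and 75.5 RPM at 8–12 h, and 92.5 RPM at 12–13 h (95% counting interval 73.6 to 115). The next libraries were lower one after another, with 53.5, 24.8 and 7.95 RPM up to 15–16 h. From 16 h on it stood at 1.79, 7.80, 1.68 and 1.03 RPM, and at 1.59, 1.62, 3.91 and 2.22 RPM at 20–24 h, so the levels after the peak were close to those before it. Only 4 libraries, those of 9–10 h and 11–14 h, were above 50% of that maximum.

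The rise and the fall of vri were both called. It averaged 7.36 ± 5.00 RPM at 4–8 h and 1.04 ± 0.51 RPM at 0–4 h (SD, n = 4 each; log2 change of 1.86 with an SE of 0.59, adjusted p = 0.0279 in limma). It averaged 55.3 ± 21.3 RPM at 8–12 h and 7.36 ± 5.00 RPM at 4–8 h (2.88 ± 0.59, adjusted p = 0.00138). No difference was called between 12–16 h and 8–12 h, periods that share the peak (-0.69 ± 0.59, adjusted p = 0.452 in limma). It averaged 3.07 ± 3.17 RPM at 16–20 h and 44.7 ± 37.0 RPM at 12–16 h (-3.28 ± 0.59, adjusted p = 0.000385). The later fall was the only member call of that comparison, in which 25.4% of all genes were called, 16.9% lower and 8.49% higher in the later period, and in which 26.3% of genes had groups that did not overlap. In the same comparison the glia marker repo fell by 1.14 on the log2 scale (not called by edgeR or after scaling), the only marker called there, and its part in the vri result was not tested. The first of these calls is the least firm: it was lost with log2(RPM + 5), with an adjusted p of 0.14, and when any of the libraries of 0–1, 1–2, 2–3, 6–7 or 7–8 h was left out, with adjusted p of up to 0.105.

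Pdp1, whose product activates Clk in the adult clock and takes part in muscle and growth in other tissues, rose over the same hours and stayed high. It had 17.8, 64.3, 103 and 163 RPM in the libraries of 0–4 h. It had 258, 532, 126 and 1449.8 RPM at 4–8 h, and 1421, 1511, 2155 and 2248 RPM at 8–12 h. The 6–7 h library lay below both of its neighbours by more than 2-fold, a dip shown there by 1.2% of genes tested. Between 12 and 24 h the 12 libraries were at 1959 to 3115 RPM, apart from 617 RPM at 21–22 h, another dip past 2-fold, shown there by 5.22% of genes.

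Pdp1 averaged 591 ± 597 RPM at 4–8 h and 87.1 ± 61.5 RPM at 0–4 h (SD, n = 4 each; log2 change of 2.56 with an SE of 0.60, adjusted p = 0.00397 in limma), a call that did not hold in a fit of only these 8 libraries (adjusted p = 0.0673). It averaged 1834 ± 428 RPM at 8–12 h and 591 ± 597 RPM at 4–8 h (2.17 ± 0.60, adjusted p = 0.0139). With vri it made 2 of 5 members called in the second comparison, both higher, against 17.4% of all genes called, 14.1% higher and 3.30% lower; vri alone had groups that did not overlap there, as did 23.4% of all genes. The second Pdp1 call was lost when the library of 4–5 h or of 6–7 h was left out (adjusted p = 0.057 and 0.0649) and with edgeR on recovered reads (adjusted p = 0.111). Over the same hours the summed level of 4 neuron markers (nSyb, brp, Syt1 and cpx) had a median of 382 RPM at 8–12 h and 42.9 RPM at 4–8 h, with all 4 called higher by limma (brp not by edgeR, adjusted p = 0.0719), and the 3 muscle markers summed to a median of 1267 RPM at 8–12 h and 270 RPM at 4–8 h, with 1 called, up (not by edgeR, adjusted p = 0.1). The 3 glia markers summed to a median of 8.76 RPM at 0–4 h, 43.2 RPM at 4–8 h and 90.4 RPM at 8–12 h, with moody and gcm called higher at 4–8 h (gcm not by edgeR or after scaling) and repo and moody at 8–12 h (moody not by edgeR). The fat body gene apolpp rose in both comparisons (log2 changes of 3.61 and 2.33, the second not called by edgeR), as did bol of the male germ line list (2.51 and 2.88). Each was the only gene tested of its list of 4. The other genes of these lists averaged at most 0.278 RPM in any embryonic period, so the rises are those of single genes. The part of these markers in the Pdp1 and vri results was not tested.

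**Figure D2:**
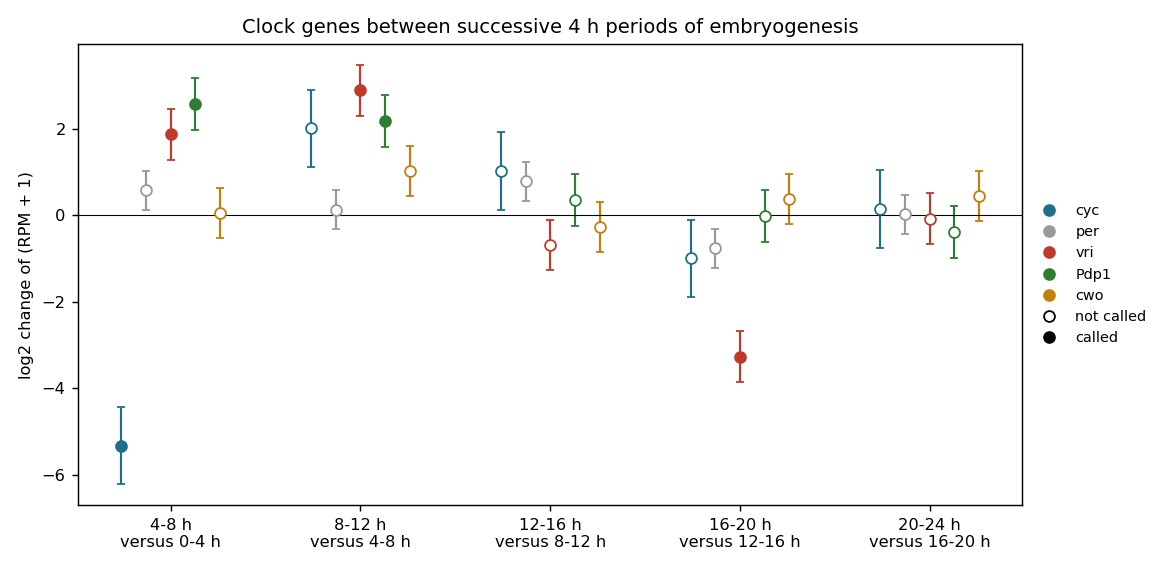
Log2 change with its SE (limma on log2(RPM + 1), 4 libraries per period) of the 5 tested clock genes in each of the 5 comparisons of an embryonic period with the one before. Filled points are called: cyc, vri and Pdp1 at 4–8 h against 0–4 h, vri and Pdp1 at 8–12 h against 4–8 h, and vri at 16–20 h against 12–16 h.

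The negative limb, per and tim, was scarcely read in the embryo. per had 146 reads in all 24 embryo libraries and was found in 21 of them, with a maximum of 4.30 RPM at 13–14 h (22 reads, interval 2.69 to 6.51). Its 3 libraries of 13–16 h, at 4.30, 3.87 and 3.79 RPM, were the highest of the embryo. It averaged 3.27 ± 1.45 RPM at 12–16 h and 1.49 ± 1.08 RPM at 8–12 h (SD, n = 4 each), and this difference did not pass the test (log2 change 0.78 ± 0.45 SE, adjusted p = 0.252). None of the 5 members was called in that comparison by limma or by edgeR, against 15.7% of all genes by limma (10.8% higher, 4.84% lower in the later period), and the groups overlapped for all 5, unlike for 20.8% of genes. No member had an unadjusted p under 0.05, the smallest being 0.0971 for per.

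tim had 53 embryo reads, in 11 libraries between 6 and 19 h. They were spread as 1 read at 4–8 h, 17 at 8–12 h, 9 at 12–16 h and 26 at 16–20 h, which pools to 1.54 RPM in the last of these periods (interval 1.01 to 2.26). The single library of 16–17 h, at 2.19 RPM, gave 22 of these 26 reads. At 20–24 h tim had 0 of 8347036 reads, which allows up to 0.359 RPM, and in larvae 0 of 36616473 reads, which allows up to 0.0819 RPM. cry had 10 embryo reads, in 6 libraries between 10 and 20 h and never more than 3 in 1 library, and no larval read.

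Of the 5 tested members, cwo moved most from hour to hour. It was read in every one of the 36 libraries, from 13.0 RPM at 4–5 h to 125 RPM at 21–22 h in the embryo, and 10 of its 23 steps between neighbouring hours were at least 2-fold. The mean absolute step was 0.90 on the log2(RPM + 1) scale, above that of 87.5% of the genes tested, against 0.62 for the median gene. Dips past 2-fold below both neighbours were seen at 1–2 h (13.2 RPM), 10–11 h (18.6 RPM) and 12–13 h (13.4 RPM). Such dips were shown there by 1.22%, 2.66% and 10.1% of genes. The last value of cwo rests on 12 reads (interval 6.91 to 23.4 RPM), so counting error does not resolve whether that dip passes 2-fold.

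These swings left no period of cwo called against the one before. cwo averaged 64.3 ± 34.0 RPM at 8–12 h and 28.4 ± 10.8 RPM at 4–8 h (SD, n = 4 each; log2 change of 1.02 with an SE of 0.57, adjusted p = 0.241 in limma). In the last comparison, 20–24 h against 16–20 h, no member was called by limma, edgeR called none either, and none had an unadjusted p under 0.05. In that comparison 6.79% of all genes were called, 4.52% higher and 2.27% lower in the later period, and 9.55% had groups that did not overlap, which held for no member. A spline over all 24 hours, which uses no periods, had an adjusted p below 0.05 for all 5 tested members, from 9.12e-11 for cyc, 1.58e-10 for vri and 4.67e-10 for Pdp1 to 0.0181 for per and 0.0338 for cwo. That holds for 89.8% of all genes tested and so says little about the clock genes, and the p of cwo rose to as much as 0.109 and that of per to 0.0571 when 1 library was left out.

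Among the 5 tested members the hourly courses were alike only in part. Spearman's correlation over the 24 embryo libraries was 0.60 between per and Pdp1, 0.54 between vri and Pdp1 and 0.46 between per and vri. It was between -0.08 and 0.19 for cwo with each of the others, and 0.09 between per and cyc. These are descriptions over libraries that share a time axis and differ in depth.

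The genes whose courses were most like each member's, taken among named genes tested, were as follows. For vri they were luna, Adgf-A2 and Ser (0.92 each), where luna encodes a zinc finger transcription factor, Adgf-A2 an adenosine deaminase-related growth factor and Ser a Notch ligand. For Pdp1 they were Appl (0.92), the fly relative of the amyloid precursor protein, Rchy1 (0.89) and MnM (0.86). For cyc they were Dyro (0.90), Icmt (0.89), a methyltransferase that acts on prenylated proteins, and Nadk1b (0.86), an NAD kinase. The leading genes were less alike for per, with HLH3B (0.82), GC (0.76) and GstT4 (0.72), and for cwo, with Tdg (0.80), Npc2f (0.77) and mat (0.77).

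Other clock-related genes were described in 4 lists. Of 10 tested kinases, phosphatases and turnover factors that act on PER and TIM, 1 fell and none rose at 4–8 h against 0–4 h: tws, a regulatory subunit of protein phosphatase 2A, at 40.4 ± 22.8 RPM at 4–8 h and 164 ± 89.0 RPM at 0–4 h (SD, n = 4 each; log2 change of -1.93 with an SE of 0.47, adjusted p = 0.00497 in limma). That is close to the 8.53% of all genes called lower there. None was called at 8–12 h or at 20–24 h against the period before. At 12–16 h 1 of 10 fell, against 4.84% of all genes called lower: CkIIalpha, the catalytic subunit of casein kinase 2 (log2 change -1.21). With median-of-ratios scaling its change was -0.91, under the 2-fold mark. At 16–20 h 3 of 10 fell: mts (log2 change -1.57), the catalytic subunit of protein phosphatase 2A, CkIIalpha (-1.28) and Cul3 (-1.03), a ubiquitin ligase scaffold, where 16.9% of all genes were called lower. The median change of that list was -0.78, against -0.50 for all genes tested in that comparison. With median-of-ratios scaling, which moves the median of all genes there to 0.12, none of these 3 was called (-0.86 for mts, -0.56 for CkIIalpha and -0.35 for Cul3, adjusted p of 0.136 to 0.476), nor was any with edgeR.

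Of 8 tested genes of clock output and clock neuron signalling, disco rose and tyf fell at 4–8 h, 2 of 8 against 17.8% of all genes called in either direction. disco, a zinc finger gene needed for the clock neurons to form, was at 98.8 ± 23.3 RPM at 4–8 h and 39.1 ± 53.4 RPM at 0–4 h (log2 change 2.23 ± 0.55 SE, adjusted p = 0.00566 in limma). tyf, a translational activator of per, was at 64.4 ± 5.9 RPM at 4–8 h and 152 ± 80.5 RPM at 0–4 h (-1.04 ± 0.32, adjusted p = 0.0242). Later, unc79, which works with the sodium leak channel of clock neurons, rose at 12–16 h (2.44 ± 0.49, adjusted p = 0.00189 in limma). It was 1 of 8, against 10.8% of all genes called higher there. At 16–20 h lark, an RNA-binding protein of the clock output, fell (-1.58 ± 0.33, adjusted p = 0.00161 in limma). That was 1 of 8, against 16.9% of all genes called lower. The calls of disco (edgeR, adjusted p = 0.205), tyf (-0.95 with median-of-ratios scaling, under the 2-fold mark) and lark (-0.87, adjusted p = 0.0564 with that scaling) each depended on the method, and that of unc79 did not in these alternatives. None of the 8 was called at 8–12 h or 20–24 h.

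The bHLH-PAS genes, relatives of Clk and cyc with roles mainly in tissue formation, had the most calls of the 4 lists at 4–8 h and 8–12 h. At 4–8 h 4 of 8 rose, against 9.30% of all genes called higher, and none fell, led by trh (log2 change 2.50), a regulator of tracheal cells, dysf (2.10), another tracheal factor, and ss (1.59), a regulator of antennal identity; tai also rose. At 8–12 h 3 of 8 rose, against 14.1% of all genes called higher, gce (3.37), which encodes a juvenile hormone receptor, dysf (3.12) and ss (1.76). At 12–16 h gce rose further (2.23) and dysf fell (-1.62), 1 of 8 each, against 10.8% of all genes called higher and 4.84% called lower. After 16 h none was called. The ss call at 8–12 h was lost with edgeR (adjusted p = 0.113) and the dysf fall with edgeR and with scaling (adjusted p = 0.144 and 0.0881). The medians of this list were 1.35 at 4–8 h and 0.71 at 8–12 h, against 0 and 0.22 for all genes. None of the 3 relatives of cry and tim (phr6-4, phr and timeout) was called in any embryonic comparison, and their summed level had a median of 2.15 RPM at 20–24 h and 23.0 RPM at 0–4 h.

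In larvae and pupae the members that could be followed through both were per, vri, cwo and cry, on the plus strand. The pupal RPM are in effect relative to plus-strand reads alone, so the larval libraries were rescaled to the same base, which raises their values about 2-fold. On that scale vri stood at 529, 374, 390, 70.8 and 13.7 RPM on pupal days 1 to 5, and at 58.3, 18.3, 0, 30.0 and 168 RPM in L1, L2, dark, light and clear gut larvae. Its 3 highest libraries of all 10 were thus the first 3 pupal days, and the highest larval library was the last one before pupariation. The dark gut library, with no vri read, was the shallowest of the larval ones and allows up to 3.44 RPM on the deposited scale.

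vri averaged 275 ± 222 RPM in pupae and 55.0 ± 66.8 RPM in larvae (SD, n = 5 each), and the difference did not pass the test (log2 change 2.75 ± 1.23 SE, adjusted p = 0.213 in limma, unadjusted p = 0.0403), with overlapping groups. per averaged 8.26 ± 5.12 RPM in pupae and 3.18 ± 5.59 RPM in larvae (1.62 ± 1.07, adjusted p = 0.402). It was read in 4 of 5 pupal libraries, all but day 1, and in 2 of 5 larval libraries, those with a light and a clear gut. cwo averaged 56.3 ± 16.3 RPM in pupae and 39.6 ± 20.9 RPM in larvae (0.67 ± 0.69, adjusted p = 0.613). None of these 3 was called by limma or edgeR, against 3.00% of the 5404 plus-strand genes by limma (1.48% higher and 1.52% lower in pupae) and none by edgeR. Of the 3, vri had an unadjusted p under 0.05, and none had groups that did not overlap, as 2.91% of genes did.

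cry was too low for that test, yet the pupae held its first reads after the embryo, 15 on day 2, 3 on day 4 and 39 on day 5, or 4.92, 0.679 and 2.34 RPM. Days 1 and 3 had none, in libraries that allow up to 2.81 and 1.59 RPM. In the larvae Pdp1 was at 823 (L1), 688 (L2), 191 (dark gut), 262 (light gut) and 46.9 RPM (clear gut), so the 3 wandering L3 libraries were all below the 2 younger ones. At the clear gut stage cyc, at 41.7% of the summed RPM of the 8 genes, and vri, at 32.1%, were both above Pdp1, at 17.5%. No plus-strand gene of the 4 lists of clock-related genes was called between pupae and larvae.

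In the adults 6 of 8 clock genes differed at least 2-fold between the single male and the single female library, a difference without a replicate check that compares these 2 libraries and not the sexes. Most of the 10930 genes compared also differed at least 2-fold, with 3881 higher in males and 3071 higher in females. The count of 6 of 8 thus does not by itself set the clock genes apart. The male library was at least 2-fold higher for 5 of the 8, against 35.5% of the 10930 genes. The female library was at least 2-fold higher for cyc alone of the 8, against 28.1% of genes. After median-of-ratios scaling, which shifts every log2 ratio by 0.27 towards males, both counts of members were the same and the shares of all genes were 39.2% higher in males and 22.8% higher in females.

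cry, at 20.2 RPM in males and 5.32 RPM in females, had the highest ratio, 3.81 (95% counting interval 2.83 to 5.19). Clk had a ratio of 3.61 (2.62 to 5.03), on the levels given above. tim was at 43.8 RPM in males and 14.4 RPM in females, a ratio of 3.03 (2.52 to 3.66). The intervals of these 3 ratios overlap, so their order is not resolved by counting error alone.

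The genes of the second loop followed. vri was at 49.4 RPM in males and 18.6 RPM in females, a ratio of 2.65 (2.24 to 3.14), and Pdp1 at 1360.2 RPM in males and 619 RPM in females, a ratio of 2.20 (2.13 to 2.26). cwo stayed under the 2-fold mark, at 95.2 RPM in males and 57.4 RPM in females, a ratio of 1.66 (1.49 to 1.84). per was at 20.5 RPM in males and 17.3 RPM in females, and its interval of 0.962 to 1.46 includes 1. cyc alone was higher in the female library, at 131 RPM in males and 329 RPM in females, a ratio of 0.398 (0.372 to 0.425).

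**Figure D3:**
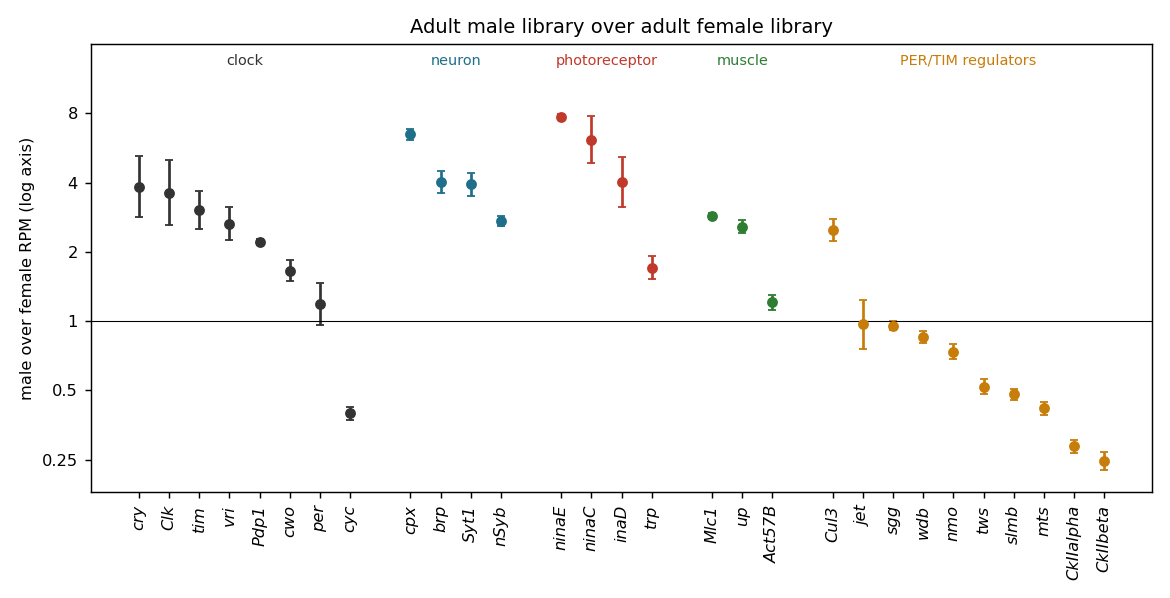
Ratio of the male to the female library (log axis) with its 95% counting interval, 1 library per sex, for the 8 clock genes, the neuron, photoreceptor and muscle markers and the PER and TIM regulators. The clock genes run from 3.81 for cry to 0.398 for cyc, and among them the interval of per alone spans 1. All 11 neuron, photoreceptor and muscle markers lie above 1.

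Markers of several cell types differed between the same 2 libraries. The 4 neuron markers summed to 1864 RPM in males and 454 RPM in females, with single ratios of 2.72 to 6.48. The 4 photoreceptor markers summed to 6358 RPM in males and 865 RPM in females, led by the rhodopsin gene ninaE with a ratio of 7.73, and the 3 muscle markers to 2037 RPM in males and 798 RPM in females. The 4 male germ line markers summed to 1460.0 RPM in males and 222 RPM in females, with Mst87F, dj and Mst98Ca at 0 in females, the fat body markers to 1498 RPM in males and 972 RPM in females, and the 3 glia markers to 767 RPM in males and 53.7 RPM in females. The male glia sum was mostly gcm, which had no read in females. For the other glia markers the ratios were 2.06 for moody and 1.28 for repo (interval 0.716 to 2.30). The listed female germ line and egg genes summed to 26.6 RPM in males and 13488 RPM in females, and none of their defining members was at 0 in females. Their part in the ratios of the clock genes was not tested.

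Of the 10 PER and TIM modifiers found, Cul3 was over 2-fold higher in males (ratio 2.48) and 4 were over 2-fold higher in females, led by CkIIbeta (0.247), CkIIalpha (0.286) and mts (0.418); after scaling, 2 of those 4 stayed past 2-fold. Those counts of 1 and 4 of 10 compare with the 35.5% and 28.1% of all genes given above (39.2% and 22.8% after scaling). Among 9 output genes, to, the takeout gene, had 694 RPM in males and 49.8 RPM in females, a ratio of 13.9, and unc79 and Pdfr, the receptor of the clock neuropeptide PDF, had ratios of 4.36 and 4.29. tyf (0.130) and lark (0.373) were higher in females. The 3 relatives of cry and tim, unlike cry and tim themselves, were all higher in females, with phr6-4 at 0.0859, phr at 0.229 and timeout at 0.283, on 15 male reads each.

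The deposited start-site peaks, 1 list for all stages together on the genome build dm3, show where these reads begin. Each peak carries a score given by the authors, which no label defines. cyc and cry had 1 peak each, at 3L:19808970-19809068 on the minus strand (score 4307) and at 3R:15037869-15037937 on the plus strand (score 108). Of all 12698 genes, 59.8% had a single peak.

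The other members had 2 or more peaks. cwo had 99.6% of its score in the peak at 3R:6213977-6213998 (plus strand), and per had 85.3% in the peak at X:2579610-2579620 (plus strand), with a weaker one 5025 bases downstream. tim had 84.4% of its score in the peak at 2L:3507216-3507223 (minus strand), 899 bases downstream of its first. In Clk the score was shared more evenly, 39 at 3L:7768458-7768467 and 24 at 3L:7768718-7768727 (minus strand), 260 bases apart.

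vri and Pdp1, the pair of the second loop, were the members with start sites spread over more than 10 kb. vri had 3 peaks on the plus strand, of which 2L:5305650-5305877 held 72.6% of the score and 2L:5288944-5289045, 16706 bases upstream, 24.0%. Pdp1 had 12 peaks on the minus strand over 52304 bases, a number reached by 59 genes of the table (0.465%). Its peak at 3L:7847848-7847967 held 81.7% of the score (29699), and the next, 3L:7848622-7848722, 8.39%. The peak table gives no level per stage, so which of these sites was used when is not answered here.

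**Figure D4:**
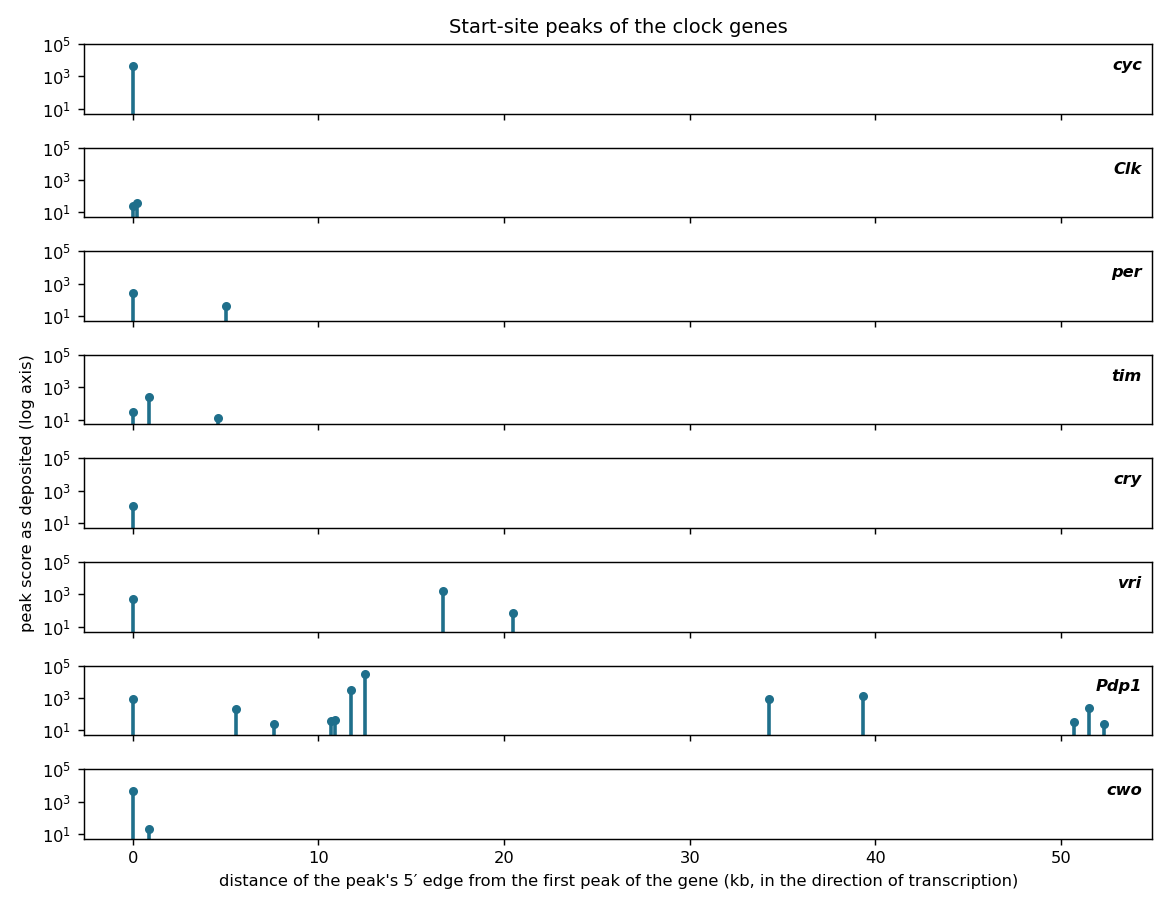
Score of each deposited start-site peak of the 8 clock genes (log axis) against its distance in kb from the gene's first peak in the direction of transcription. Pdp1 has 12 peaks over 52304 bases, vri 3, tim 3, per, Clk and cwo 2 each, and cyc and cry 1.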

How the data were processed

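RPM values and peaks are the authors' deposited files for 36 RAMPAGE libraries. The deposited RPM are relative to a library's reads in genic start-site peaks, and each library sums to 1000000. The submitters' processing notes name STAR, Cufflinks and the genome build dm3; how reads were counted and whether duplicates were removed are not given in the sources used here. The peak score was deposited by the authors without a definition. All RPM values came out as whole multiples of 1 read, within 0.01 read (100% of values; the step of the 16–17 h library is less certain, lying close to a round decimal), which gave the reads used for depth, intervals and edgeR.

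Symbols were matched for 12110 of 12698 identifiers, and 588 had none. Embryo libraries were fitted with limma 3.58.1 in R 4.3.3 on log2(RPM + 1), keeping genes that reached 2 RPM in 3 or more libraries, with Benjamini-Hochberg adjustment over all genes tested, in 6 periods of 4 libraries or as a natural spline with 5 degrees of freedom. Pupae and larvae were fitted alone on plus-strand genes rescaled to 1000000. Adults, with 1 library per sex, were not tested: exact counting intervals at 95% were computed in Python 3.11.15 with scipy 1.17.1. Alternatives were log2(RPM + 5), no filter, median-of-ratios scaling, edgeR 4.0.16 on the recovered reads, only the libraries compared, a spline with 3 degrees of freedom, and leaving out each library. The fits were tested on simulated data. Named genes are the 8 clock genes, the 3 named genes with the highest Spearman correlation to each tested member, and up to 3 called members of each list per comparison, taken by size of change; tai, and the list genes named in adults, were named after their values were seen. The members and lists were chosen with earlier results of these data known. The listed genes dbt, Nlf-1, sima, elav, norpA, Mhc and nos were not analysed here.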

Additional observations from a re-analysis of the deposited data

Results flagged for a closer look

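Of 46 groups of 4 or 5 libraries checked, 6 held a library whose gap to the nearest other library was a large part of the group's range (above Dixon's 95% critical value, 0.829 for 4 libraries and 0.71 for 5). Among replicates chance marks about 1 group in 20. These libraries are successive stages and not replicates, so that rate is no yardstick for the count of 6. per stood apart in 3 of them, with its highest library of 8–12 h at 10–11 h (3.11 RPM), its lowest of 12–16 h at 12–13 h (1.11 RPM, 1 read) and its highest larval library at the clear gut stage (6.59 RPM, 37 reads). vri at 17–18 h had 7.80 RPM, above the other 3 libraries of 16–20 h. tim at 6–7 h (0.168 RPM) and cry at 10–11 h (0.888 RPM) were the only libraries of their periods with a read, on 1 and 2 reads. The rule always marks a group in which only 1 library has reads.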

How the results depend on the processing

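No paired analysis was possible because the labels give no replicate numbers and each stage is 1 library. The 5 embryonic comparisons called 3, 2, 0, 1 and 0 clock genes in order. At 8–12 h against 4–8 h edgeR called 1, and leaving out 1 library gave 1 to 2 (1 without 4–5 h or 6–7 h). At 4–8 h against 0–4 h a fit of only the 8 libraries called 1, with adjusted p of 0.0533 for vri and 0.0673 for Pdp1, and leaving out 1 library gave 2 to 3. The spline gave 4 to 5 without 1 library. With only its 8 libraries, cyc at 8–12 h had an adjusted p of 0.0373.

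Signs turned only for changes that were not called. At 20–24 h per was at -0.021 with log2(RPM + 5), -0.10 with median-of-ratios scaling and -0.51 with edgeR, and cyc at -0.035 and -0.11 with the last pair. With scaling and edgeR, cwo at 12–16 h was at 0.024 and 0.19, and Pdp1 at 16–20 h at 0.70 and 0.71. With edgeR, cwo at 4–8 h was at -0.020 and per at 8–12 h at -0.11. Leaving out 1 library, cwo ranged from -0.25 to 0.41 at 4–8 h, -0.77 to 0.29 at 12–16 h and -0.20 to 0.76 at 16–20 h, Pdp1 from -0.14 to 0.048 at 16–20 h and -0.67 to 0.11 at 20–24 h, per from -0.24 to 0.41 at 8–12 h and -0.40 to 0.23 at 20–24 h, and vri from -0.33 to 0.38 at 20–24 h. The cause was not tested.

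Counts over all genes moved more. At 4–8 h 1772 genes were called, 830 with only 8 libraries and 1146 to 2354 without 1 library; at 16–20 h 2526, 1110 with edgeR and 1613 with only 8; at 20–24 h 675, 326 with edgeR, 416 with only 8 and 429 to 978 without 1 library. Without 1 library the 1730 calls of 8–12 h ranged from 1031 to 1860 and the 1557 of 12–16 h from 806 to 2003. Between pupae and larvae 162 were called, 80 without the filter, 0 with edgeR (1162 had an unadjusted limma p under 0.05) and 33 to 607 without 1 library. Median-of-ratios scaling moved the median change of all genes from -0.50 to 0.12 at 16–20 h and from -0.09 to 0.15 at 12–16 h. Depth limits per, tim and cry in the embryo, at 146, 53 and 10 reads.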

Other observations

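A gene on the glia list, gcm, known as the switch to glial fate in the embryo, had 658 RPM in adult males (5784 reads) and no read in adult females, while the glial gene repo had 2.96 RPM in males and 2.30 RPM in females. gcm was singled out after its values were seen.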
